A study of Mus musculus with 11 samples.

Results

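The variable (V) segments of the immunoglobulin kappa light chain were followed here, one segment at a time, in bulk RNA sequencing of 11 mouse samples labelled acute myeloid leukaemia (AML). Members were all genes of the deposited table whose Ensembl identifier maps to a symbol beginning with Igkv, which gave 160 of 55487 genes. Both groups carried Flt3-ITD, an internal tandem duplication that activates the cytokine receptor Flt3, and NHD13, a NUP98-HOXD13 fusion transgene. Of the samples, 6 were Ifnar1 +/- and 5 were Ifnar1 -/-, so the comparison group also had 1 disrupted copy of Ifnar1, which encodes a subunit of the type I interferon receptor. Neither age nor sex is given in the sources used here, nor the zygosity of the other alleles or how the AML cells were isolated. Below, "+/- library 3" means the third Ifnar1 +/- sample by its label, and likewise for the others.

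A kappa light chain gene is assembled in a developing B cell when the RAG proteins join a V segment to a joining (J) segment upstream of the constant exon Igkc. The germline locus holds many V segments in families of related sequence, in both orientations, so a V segment can be reached by deletion or by inversion of the DNA between it and the J segments. A population of many B cells therefore transcribes many V segments, while the descendants of 1 rearranged cell share the same rearranged kappa gene. Unrearranged V segments can also be transcribed, as sterile transcripts, before recombination. Counts per gene do not tell rearranged from sterile transcripts.

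By the annotation, all 160 members lay on chromosome 6, in 20 families, from 22.3 kb (Igkv3-1) to 3170 kb (Igkv2-137) from Igkc. Of them, 100 were classed as V genes and 60 as V pseudogenes, and 75 lay on the plus strand and 85 on the minus strand. At least 1 count in any library was found for 121 members, namely 97 V genes and 24 pseudogenes. The other 39 had no count in any library, and 36 of these were pseudogenes. The 3 V genes among them were Igkv1-131, Igkv8-26 and Igkv7-33, named here because their number is small.

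Library totals ran from 25583642 to 38728143 estimated counts. Levels are given in CPM, a library's counts scaled to a common total. Ifnar1 transcript averaged 60.9 ± 16.8 CPM over the +/- libraries (SD, n = 6) and 69.0 ± 38.4 CPM over the -/- libraries (SD, n = 5), and the groups overlapped, so the transcript neither checks nor contradicts the labels. The samples are labelled AML, yet the summed level of 9 markers of pro-B and pre-B cells reached 2694 to 5098 CPM in +/- libraries 3, 4 and 5 and -/- libraries 3 and 5. In the other 6 libraries it was 0.261 to 43.9 CPM. The summed level of 4 myeloid markers (Mpo, Elane, Csf1r and Itgam) was 6.06 to 94.95 CPM in those 5 libraries and 3.61 to 1226 CPM in the other 6. Igll1, the surrogate light chain gene of early B cells, alone was at 1055 to 2818 CPM in the 5 libraries and at most 15.5 CPM in the others. In bulk RNA, fewer cells of a type and less RNA per cell cannot be told apart.

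The largest share of a library's Igkv counts fell on 1 of 8 segments in the 9 libraries with at least 100 such counts. Those 8 segments are shown by the last 60 coding bases of the reference V exon, because this stretch encodes the germline start of the third complementarity-determining region, where V joins J. Capitals run from the codon of the conserved cysteine to the end of the V segment. Sequences are from GENCODE release M21 on GRCm38, written in the sense of the gene, and the coordinates are of the whole gene on chromosome 6.
Igkv12-44, chr6:69814631-69815154, minus strand: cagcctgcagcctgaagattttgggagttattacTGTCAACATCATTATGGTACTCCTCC
Igkv12-46, chr6:69764523-69765022, minus strand: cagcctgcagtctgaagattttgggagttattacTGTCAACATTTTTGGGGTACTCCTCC
Igkv14-111, chr6:68256389-68256869, plus strand: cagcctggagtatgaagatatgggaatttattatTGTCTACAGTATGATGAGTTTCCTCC
Igkv19-93, chr6:68736297-68736780, minus strand: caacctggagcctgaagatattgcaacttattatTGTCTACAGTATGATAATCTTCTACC
Igkv3-4, chr6:70671788-70672377, plus strand: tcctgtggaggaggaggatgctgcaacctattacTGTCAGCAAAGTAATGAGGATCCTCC
Igkv6-23, chr6:70260409-70260955, minus strand: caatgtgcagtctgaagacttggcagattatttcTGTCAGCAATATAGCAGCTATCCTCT
Igkv8-21, chr6:70314895-70315472, minus strand: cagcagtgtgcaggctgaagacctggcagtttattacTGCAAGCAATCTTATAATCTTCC
Igkv9-124, chr6:67942074-67942540, minus strand: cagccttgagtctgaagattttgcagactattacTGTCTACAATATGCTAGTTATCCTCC

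From the cysteine codon on, 26 bases remain in these segments, and 23 in Igkv8-21. Igkv12-44 and Igkv12-46, which led in different libraries, are 94.4% identical over 377 aligned bases of their reference transcripts. The closest other segment is Igkv12-41 for both, at 95.7% and 95.1% identity. Igkv19-93, the sole member of its family, has no close relative, and its best match is Igkv10-94 at 79.9%. Across the 121 members with a count, 51 had another member at or above 95% identity, so the authors' counting could have split reads among such neighbours.

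The summed Igkv level ranged widely within both genotypes. In +/- libraries 1 to 6 it was 38.8, 28.1, 32.3, 81.8, 129.6 and 20.8 CPM, from 964, 843, 900, 2252, 5379 and 642 estimated counts. In -/- libraries 1 to 5 it was 0.154, 34.0, 70.3, 3.15 and 210.0 CPM, from 5, 659, 1966, 86 and 6577 estimated counts. The highest and the lowest library were both Ifnar1 -/-, and all 6 +/- values lay inside the -/- range. The +/- libraries averaged 55.2 ± 42.3 CPM (SD, n = 6), the -/- libraries 63.5 ± 86.7 CPM (SD, n = 5). Their difference of 8.26 CPM was smaller than either SD, and its direction rested on -/- library 5, since without that library it was -28.4 CPM.

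Igkc, the constant exon shared by all kappa chains, was at 82.4, 53.3, 102, 326, 515 and 47.4 CPM in +/- libraries 1 to 6. In -/- libraries 1 to 5 it was at 0, 72.3, 50.07, 7.10 and 430 CPM. The 0 in -/- library 1, which had 5 Igkv counts, allows up to 0.0925 CPM (3 counts). The +/- libraries averaged 188 ± 191 CPM (SD, n = 6), the -/- libraries 112 ± 180 CPM (SD, n = 5). With fold changes taken as Ifnar1 -/- against Ifnar1 +/-, that of Igkc was -0.74 on the log2 scale (SE 1.40, edgeR adjusted p = 0.9998). The difference was therefore within the spread between libraries. Per count of Igkc, Igkv had 0.251 to 0.528 counts in the +/- libraries and 0.446 to 0.488 in -/- libraries 2, 4 and 5. In -/- library 3 this ratio was 1.40, with 1966 Igkv counts against 1401 of Igkc. Igkj1 to Igkj5, the short J segments, had at most 2 counts each in any library.

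**Figure D1:**
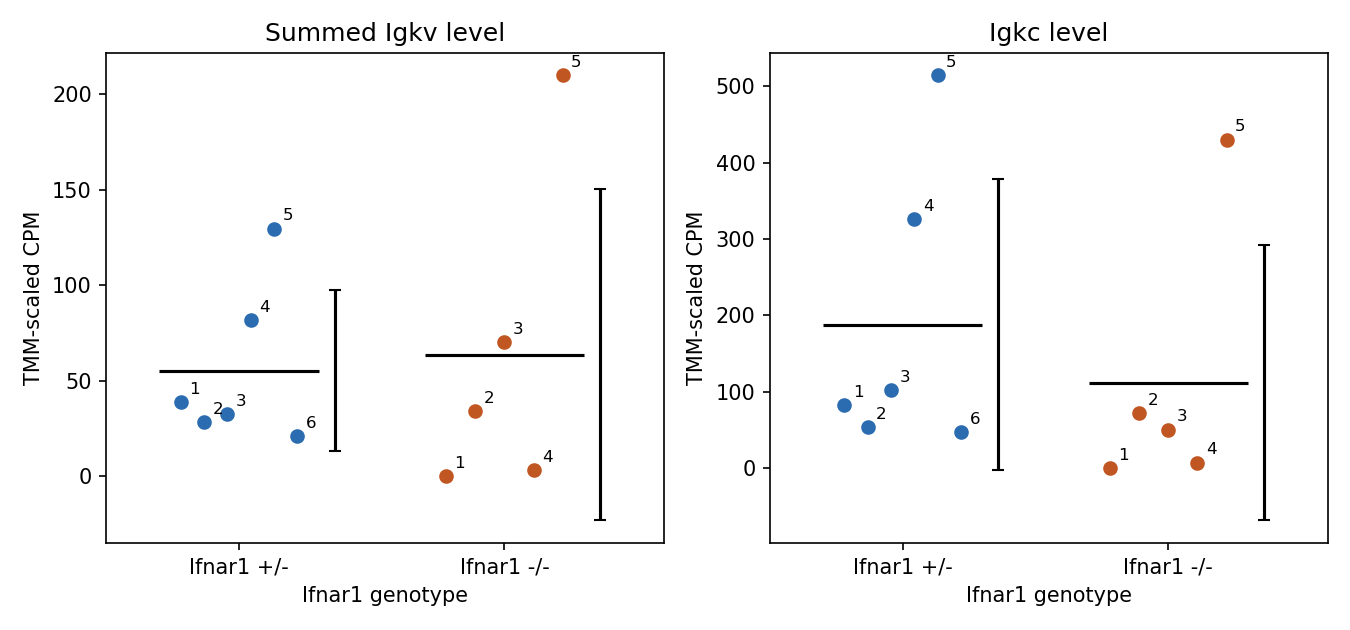
Summed Igkv level (left) and Igkc level (right), in TMM-scaled CPM on linear axes, by Ifnar1 genotype, with 1 numbered point per library, the mean as a horizontal line and ± 1 SD as the bar beside it. Igkv ran from 20.8 to 129.6 CPM in Ifnar1 +/- and from 0.154 to 210.0 CPM in Ifnar1 -/- libraries, and the genotypes overlap for both quantities.

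The number of segments detected, with at least 1 count, also differed widely between libraries. In +/- libraries 1 to 6, 28, 18, 72, 98, 105 and 29 segments were detected, and in -/- libraries 1 to 5 the numbers were 2, 18, 79, 9 and 83. The 5 libraries with 72 or more segments are those with Igll1 above 1000 CPM. The +/- libraries averaged 58.3 ± 38.3 segments (SD, n = 6), the -/- libraries 38.2 ± 39.5 (SD, n = 5), and the difference of -20.1 was smaller than either SD. With at least 10 counts per segment, 13, 6, 18, 41, 66 and 7 segments were detected in the +/- libraries and 0, 7, 25, 2 and 34 in the -/- libraries.

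These numbers depend on how many Igkv counts a library had, so they were also computed at a common 642 Igkv counts, which left out -/- libraries 1 and 4. The expected number of segments was then 25.6, 16.7, 67.0, 79.1, 76.1 and 29.0 in +/- libraries 1 to 6, and 17.9, 58.7 and 41.6 in -/- libraries 2, 3 and 5. The libraries thus still differed at equal Igkv counts. The clearest pair had near-equal depth. With 900 counts, +/- library 3 had 72 segments, whereas +/- library 1 had 28 with 964 counts. Igll1 was at 2818 CPM in +/- library 3 and at 1.49 CPM in +/- library 1. Whether early B cell RNA set the number of segments was not tested.

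**Figure D2:**
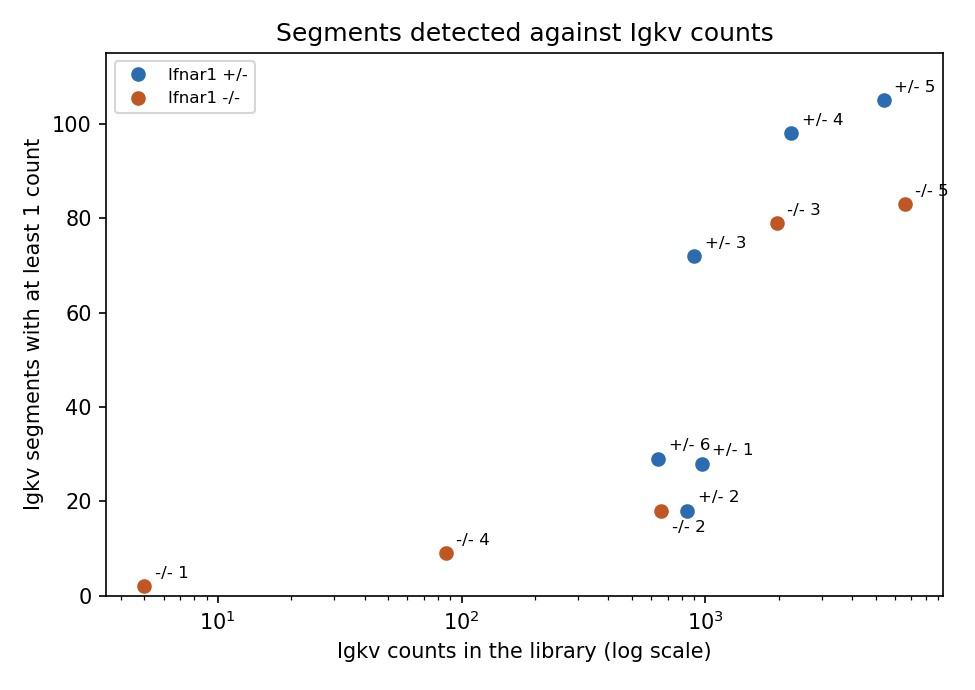
Segments detected with at least 1 count against the Igkv counts of the library (log axis), with 1 point per library and colour for genotype. At 900 and 964 counts, +/- libraries 3 and 1 had 72 and 28 segments.

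Counts were spread over many segments, though unevenly, in some libraries, while 1 segment held most of them in others. The effective number of segments, the exponential of Shannon's entropy of the shares, equals the number of segments when all have equal shares. It was 10.4, 5.72, 25.8, 39.4, 39.8 and 3.88 in +/- libraries 1 to 6 and 6.79, 14.1 and 8.91 in -/- libraries 2, 3 and 5. It was not computed for -/- libraries 1 and 4, which had under 100 Igkv counts. The highest values were in +/- libraries 4 and 5, whereas -/- library 5, with the most Igkv counts, had 8.91. In +/- libraries 1 to 6, 3, 2, 5, 9, 8 and 1 segments were enough to hold 50% of the Igkv counts, and in -/- libraries 2, 3 and 5 the numbers were 3, 2 and 1.

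**Figure D3:**
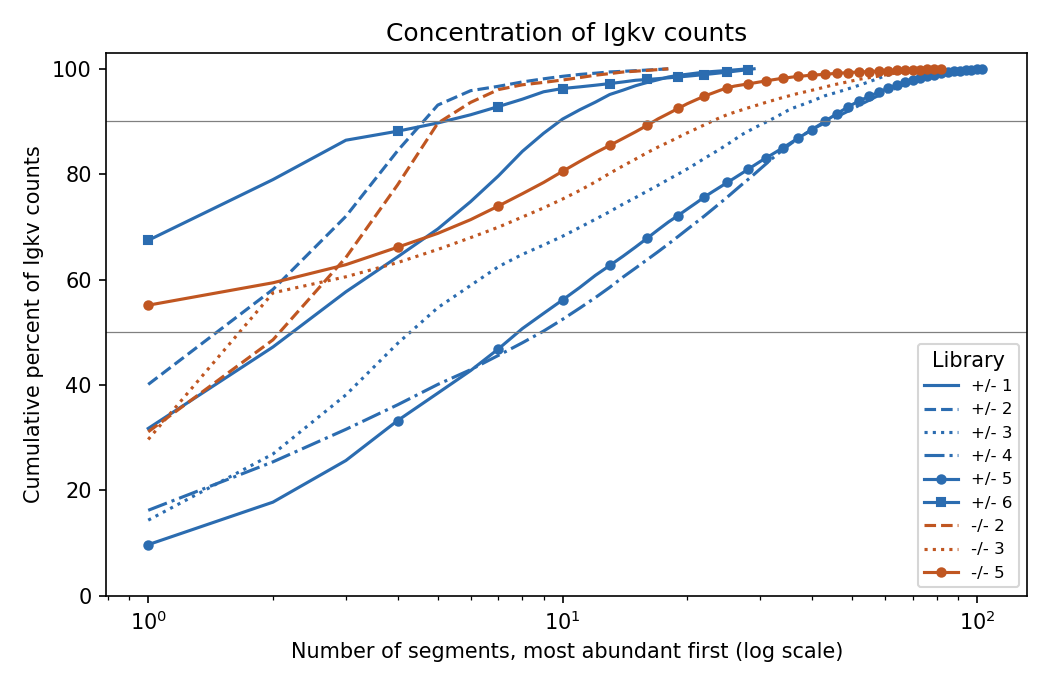
Cumulative percentage of a library's Igkv counts against the number of segments (log axis), ordered from the largest share, for the 9 libraries with at least 100 Igkv counts. The curves of +/- library 6 and -/- library 5 start at 67.4% and 55.1%, and that of +/- library 5 starts at 9.69%.

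The leading segment held 67.4% (95% Wilson interval 63.7 to 71.0%) of 642 Igkv counts in +/- library 6, where it was Igkv12-46. Igkv8-21 held 55.1% (53.9 to 56.3%) of 6577 counts in -/- library 5. Igkv12-44 led in both +/- library 1, with 31.7% (28.9 to 34.7%), and +/- library 2, with 40.1% (36.8 to 43.4%). Intervals cover counting error only. No other segment led in more than 1 library.

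Smaller leading shares were found in the remaining libraries. Igkv6-23 held 31.1% (27.7 to 34.7%) in -/- library 2, and Igkv9-124 held 29.7% (27.7 to 31.7%) in -/- library 3. In -/- library 3 a second segment, Igkv6-20, was close behind with 27.8%. The smallest leading shares were those of Igkv19-93 at 16.2% (14.7 to 17.8%) in +/- library 4, Igkv14-111 at 14.3% (12.2 to 16.8%) in +/- library 3 and Igkv3-4 at 9.69% (8.92 to 10.5%) in +/- library 5. A small leading share did not go with every high number of segments, since -/- library 5, where Igkv8-21 led with 55.1%, had 83 segments. The median leading share over the 9 libraries was 31.1%.

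**Figure D4:**
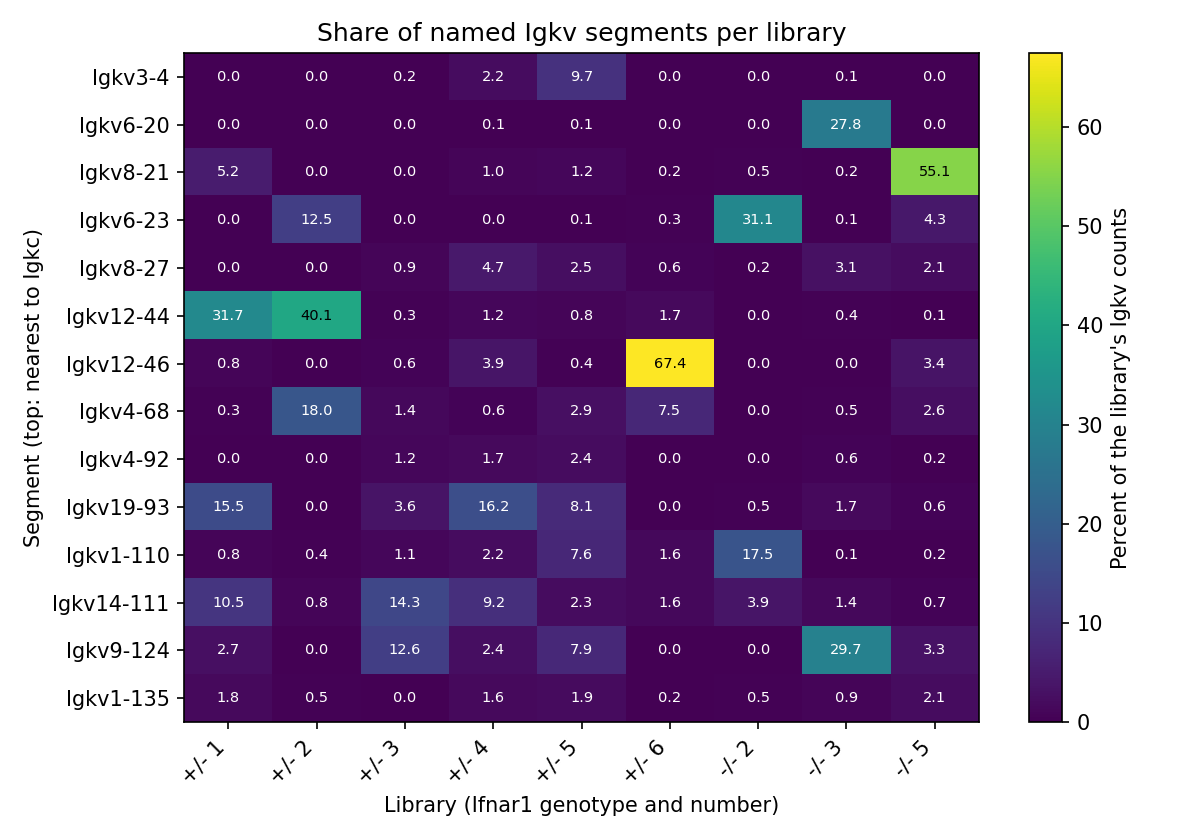
Share of each library's Igkv counts (percent, colour scale) held by the 14 named segments, for the 9 libraries with at least 100 Igkv counts. The strongest cells are Igkv12-46 in +/- library 6 (67.4%) and Igkv8-21 in -/- library 5 (55.1%), and Igkv12-44 stands out in +/- libraries 1 and 2 (31.7% and 40.1%).

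Igkv8-21 had the highest mean level per length over the 11 libraries, at 28.7 CPM per kb of exon. That level came almost wholly from -/- library 5, with 116 CPM. In +/- libraries 1 to 6 it was at 2.01, 0, 0, 0.835, 1.50 and 0.0324 CPM, and in -/- libraries 1 to 4 at 0, 0.155, 0.107 and 0 CPM. The same library had the highest Jchain level, 34.3 CPM, against 0.154 to 11.2 CPM in the other 10. Jchain encodes the joining chain made by antibody-secreting cells. Of the 7 plasma cell markers, -/- library 5 also had the highest Derl3 level of the 11 libraries (3.77 CPM, against 3.18 CPM in -/- library 3). Mzb1 was at 715, Xbp1 at 182, Sdc1 at 28.3 and Prdm1 at 1.02 CPM there, each lower than in another library. Mzb1 was at 1122 CPM in +/- library 4 and Xbp1 at 296 CPM in +/- library 1. Sdc1 was at 53.1 CPM and Prdm1 at 1.86 CPM in -/- library 3. The seventh, the plasma cell receptor gene Tnfrsf17, was at 0 CPM there. The part of antibody-secreting cells in the Igkv8-21 level was not tested.

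Igkv9-124 was second by mean level per length, at 11.6 CPM per kb. It was at 1.05, 0, 4.06, 1.96, 10.2 and 0 CPM in +/- libraries 1 to 6 and at 0, 0, 20.8, 0 and 6.96 CPM in -/- libraries 1 to 5. It was thus detected in 6 libraries, 5 of which are those with Igll1 above 1000 CPM, while +/- library 1 is the sixth. Igkv19-93, at 8.36 CPM per kb, had 5.99, 0, 1.15, 13.3, 10.5 and 0 CPM in +/- libraries 1 to 6 and 0, 0.155, 1.22, 0 and 1.18 CPM in -/- libraries 1 to 5. Its 3 highest values were all Ifnar1 +/-, but the +/- libraries also included 2 at 0.

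Igkv12-44 and Igkv12-46 were high in different libraries. Igkv12-44 was at 12.3 and 11.3 CPM in +/- libraries 1 and 2 and between 0 and 1.06 CPM in the other 9. Igkv12-46 was at 14.0 CPM in +/- library 6, 7.21 CPM in -/- library 5 and 3.16 CPM in +/- library 4, and at most 0.578 CPM elsewhere. No library had both above 1.02 CPM, and -/- libraries 1, 2 and 4 had no count of either.

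Igkv14-111 was the most widely detected segment, found in all 11 libraries, -/- library 1 included. It was at 4.06, 0.233, 4.64, 7.52, 2.99 and 0.324 CPM in +/- libraries 1 to 6 and at 0.0308, 1.34, 1.0, 0.110 and 1.47 CPM in -/- libraries 1 to 5. The 4 highest values were Ifnar1 +/-, while +/- libraries 2 and 6 lay among the -/- libraries. Igkv1-110 was detected in 10 libraries, with 9.84 CPM in +/- library 5 and 5.92 CPM in -/- library 2 against at most 1.80 CPM elsewhere. It is 97.5% identical to Igkv1-117, so its counts are uncertain.

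Several segments were high in 1 to 3 libraries. Igkv6-23 was at 10.6 and 8.95 CPM in -/- libraries 2 and 5 and 3.50 CPM in +/- library 2, and at most 0.169 CPM in the other 8. Igkv3-4 was at 12.5 CPM in +/- library 5 and 1.82 CPM in +/- library 4, and at most 0.0719 CPM in the other 9. Igkv6-20 was at 19.5 CPM in -/- library 3 and otherwise found only in +/- libraries 4 and 5, at 0.0726 and 0.193 CPM. In -/- library 3 Igkv6-29, which is 98.7% identical to Igkv6-20, had 44 counts against 547 for Igkv6-20 and had none elsewhere, so the split between them is uncertain.

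Igkv4-68 and Igkv8-27 were more evenly distributed. Igkv4-68 was at 5.07, 3.72 and 1.56 CPM in +/- libraries 2, 5 and 6 and 5.43 CPM in -/- library 5, and at most 0.467 CPM in the other 7. Igkv8-27 was at 3.81 and 3.30 CPM in +/- libraries 4 and 5 and 2.14 and 4.44 CPM in -/- libraries 3 and 5, and at most 0.288 CPM elsewhere. Both genotypes thus held libraries with high and with low levels of each of them. Igkv4-68 was detected in all 6 +/- libraries, with 3 counts in +/- library 1. It is 96.3% identical to Igkv4-61, so its counts are uncertain.

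Libraries shared few of their leading segments. Over the 36 pairs of the 9 libraries, between 0 and 6 of the 10 largest segments were shared, with a median of 3. The overlap of shares, the sum over segments of the smaller of the 2 shares, had a median of 13.6% and a range of 3.45 to 56.2%. The most similar pairs were +/- libraries 4 and 5 (56.2%) and +/- libraries 1 and 2 (43.4%). Igkv9-124 and Igkv14-111 were each among the 10 largest in 6 libraries, and Igkv19-93 and Igkv8-27 in 5. Some lower places rested on few counts, such as 7 of Igkv14-111 in +/- library 2 and 4 of Igkv8-27 in +/- library 6. In -/- library 2, Igkv2-137 and Igkv8-21 were placed with 3 counts, which Igkv19-93 and Igkv1-135 also had. The numbers of shared segments therefore depend in part on ties. Of the 91 segments with at least 10 counts in all, 50 had over 50% of their summed CPM in 1 library, and 6 had over 90%. Those 6, named because they are few, were Igkv8-21 and Igkv8-16, Igkv6-20 and Igkv6-29, Igkv4-74 and Igkv1-99.

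By family, Igkv4 is the largest, with 33 segments of which 32 had a count, and it held 41.2% of Igkv counts in +/- library 3 but 0.303% in -/- library 2. Igkv12 held 69.3% in +/- library 6, 40.2% in +/- library 2 and 32.6% in +/- library 1, and 0 of 659 counts in -/- library 2, which allows up to 0.455%. Igkv8 held 59.9% in -/- library 5. Igkv6 and Igkv9 held 30.8% and 32.0% in -/- library 3, each through 1 leading segment. In +/- libraries 4 and 5 the largest family, Igkv19 (16.2%) and Igkv4 (27.7%) respectively, held less than the largest family of each of the other 7 libraries.

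Pseudogenes, which cannot encode a light chain, were counted in only 5 of the 9 libraries. They held 228 of 900 Igkv counts in +/- library 3, or 25.3% (95% Wilson interval 22.6 to 28.3%). The share was 7.58% (6.49 to 8.83%) in -/- library 3, 3.35% (2.90 to 3.86%) in +/- library 5, 2.26% (1.73 to 2.97%) in +/- library 4 and 0.456% (0.320 to 0.650%) in -/- library 5. No pseudogene count was found in +/- libraries 1, 2 and 6 or -/- library 2, which allows shares of up to 0.311%, 0.356%, 0.467% and 0.455%. The 5 libraries with pseudogene counts are the 5 with Igll1 above 1000 CPM. The part of early B cell RNA in the pseudogene counts was not tested.

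The pseudogenes Igkv4-73 and Igkv4-77, named after their values were seen, carried most of these counts over the 5 libraries together. Igkv4-73 had 101 counts and Igkv4-77 had 88 in +/- library 3, and they had 49 and 90 in +/- library 5. They lie 1528 and 1615 kb from Igkc. Both belong to family Igkv4 and have a relative at 95.5% identity, Igkv4-79 and the V gene Igkv4-68 respectively, so these counts are uncertain.

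Position along the locus was compared after dividing the 160 segments by distance from Igkc into 53 near (up to 1044 kb), 53 middle (up to 1971 kb) and 54 far segments. These hold 42, 28 and 30 V genes. Near segments held 49.4, 54.3, 10.9, 31.9, 31.0 and 73.2% of Igkv counts in +/- libraries 1 to 6 and 74.1, 39.5 and 78.7% in -/- libraries 2, 3 and 5. Far segments held 44.5, 27.2, 40.2, 52.6, 39.5 and 17.0% and then 25.6, 42.9 and 12.7%, in the same order. Near segments held over 70% in +/- library 6 and -/- libraries 2 and 5, where the near segments Igkv12-46, Igkv6-23 and Igkv8-21 led. In +/- library 5, led by the near segment Igkv3-4, far segments held more (39.5%) than near ones (31.0%). Middle segments held 48.9% (45.6 to 52.2%) in +/- library 3, more than either other part of the locus in that library. There the pseudogenes Igkv4-73 and Igkv4-77 had 101 and 88 of the 440 middle counts, against 362 far counts. The lead of the middle part thus rested on these pseudogenes, whose counts are uncertain. In -/- library 2 middle segments held 0.303% (0.0833 to 1.10%).

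By orientation, 38 of the 100 V genes lie on the plus strand, opposite to the direction in which most leading segments lie. Of all 160 members, pseudogenes included, 75 do. Plus-strand segments held 26.7, 28.0, 30.0, 41.4, 38.2 and 20.6% of Igkv counts in +/- libraries 1 to 6 and 38.7, 12.3 and 13.2% in -/- libraries 2, 3 and 5. The highest shares were in +/- library 4 (39.4 to 43.5%), -/- library 2 (35.05 to 42.5%) and +/- library 5 (37.0 to 39.5%). The last 2 intervals hold the 38% of V genes, and that of +/- library 4 lies above it. These shares also count pseudogenes. The lowest were in -/- libraries 3 and 5, led by the minus-strand segments Igkv9-124 and Igkv8-21, but -/- library 2 was also led by a minus-strand segment, Igkv6-23. The genotypes overlapped.

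**Figure D5:**
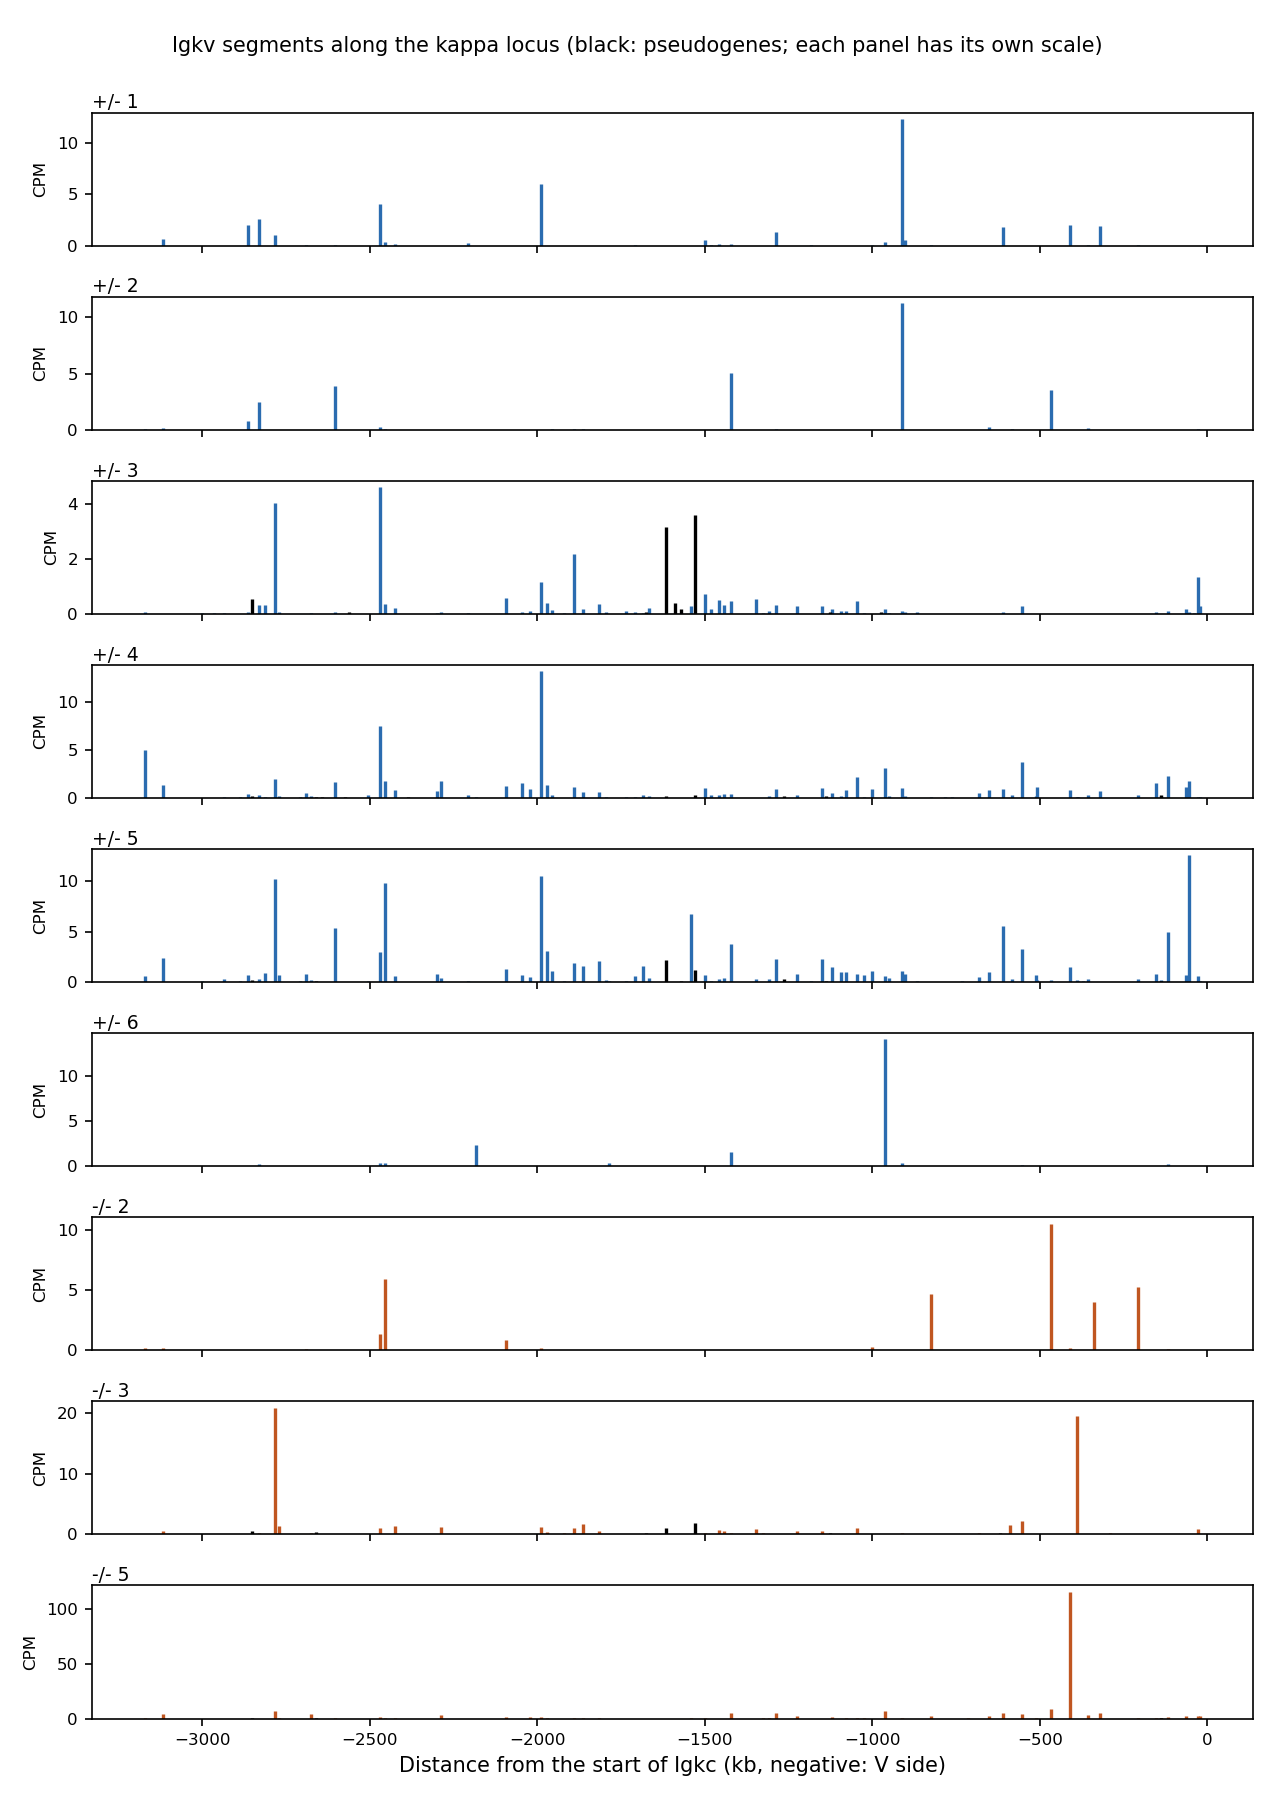
Level of each Igkv segment (CPM, with a scale of its own in each panel) against its distance from Igkc (kb), for the 9 libraries with at least 100 Igkv counts, with pseudogenes in black. Igkv8-21 dominates -/- library 5 at 116 CPM, 411 kb from Igkc, whereas +/- library 5 shows many segments along the locus.

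Ifnar1 genotype is the contrast that the labels set, and each segment was tested for it. Of the 160 members, 9 passed the filter on low counts, and 112 others had counts but did not pass. None of the 9 was called by edgeR at an adjusted p under 0.05, against a background of 0% of 14521 genes, and none had an unadjusted p under 0.05, against 1.99% of all genes. DESeq2 called none of the 9 after adjustment, against 0.0213% of 14061 genes, and 1 at an unadjusted p under 0.05, Igkv14-111, against 3.13%. Of the 9, 7 had a lower and 2 a higher fitted value in Ifnar1 -/- AML, with a median log2 fold change of -0.72, against -0.01 over all genes tested. None of the 9 had groups that did not overlap, against 0.124% of genes tested. The labels do not say whether the samples of a genotype came from different mice, so the p-values reflect only the spread between these samples. How much of that spread was technical was not tested.

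The smallest p-values belonged to Igkv14-111 and Igkv19-93. Igkv14-111 averaged 3.29 ± 2.78 CPM over the +/- libraries (SD, n = 6) and 0.790 ± 0.679 CPM over the -/- libraries (SD, n = 5), a log2 fold change of -2.06 (SE 1.09, edgeR adjusted p = 0.9998). Igkv19-93 averaged 5.14 ± 5.72 CPM (SD, n = 6) and 0.510 ± 0.631 CPM (SD, n = 5), with a log2 fold change of -3.32 (SE 1.85, edgeR adjusted p = 0.9998). Neither passed the test. Igkv4-92 had a log2 fold change of -2.39 (SE 1.72). The 2 segments with higher fitted values, Igkv9-124 at 0.94 (SE 1.94) and Igkv1-135 at 0.46, turned below 0 without -/- library 3 (-0.69) and without -/- library 5 (-1.93), respectively.

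Of 28998 genes with any count, 31 (0.107%) had groups that did not overlap, in either order. Among the 121 members with a count, 1 had every +/- library above every -/- library, and none had the opposite order. This segment was Igkv14-126, named after its values were seen. It was at 2.57, 2.43, 0.323, 0.327, 0.337 and 0.292 CPM in +/- libraries 1 to 6 and at 0, 0, 0.179, 0 and 0.0638 CPM in -/- libraries 1 to 5. It had at most 14 counts in +/- libraries 3 to 6 and did not pass the filter. Fitted without a filter, its log2 fold change came to -4.29 (SE 1.26, edgeR adjusted p = 0.798). Without a filter, 22 of the 121 members with a count had an unadjusted p under 0.05, against 3.85% of 28998 genes. Of the 22, 17 were lower in Ifnar1 -/- AML, and none passed after adjustment. Among the 22, Igkv6-29, Igkv8-16, Igkv6-20 and Igkv1-99 had over 90% of their summed CPM in 1 library. Members were counted in the same libraries, so their p-values are not independent, and the 22 do not measure an effect of genotype.

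Kappa was set beside lambda, the other light chain, which a B cell uses mostly when kappa rearrangement has failed. Kappa took 87.4, 77.8, 40.7, 34.4, 68.1 and 99.7% of the light-chain constant counts (Igkc and Iglc genes) in +/- libraries 1 to 6, and 73.5, 6.52, 96.5 and 84.3% in -/- libraries 2 to 5. The lowest share, 6.52% (95% Wilson interval 6.20 to 6.86%), was in -/- library 3, where Iglc genes summed to 718 CPM and Igkc was at 50.07 CPM. That is also the library with more Igkv than Igkc counts. In +/- library 4, Iglc genes summed to 620 CPM against 326 CPM for Igkc. In +/- library 3, Iglc genes had 4146 counts and lambda V segments 89, whereas Igkc had 2841 and Igkv 900. Constant counts thus need not stand for rearranged light chains.

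Heavy-chain V segments (Ighv) varied across the libraries in a way that can be set beside Igkv. Ighv summed to 24.9, 20.0, 20.2, 76.9, 76.8 and 10.8 CPM in +/- libraries 1 to 6 and to 3.48, 14.9, 70.7, 12.3 and 165 CPM in -/- libraries 1 to 5, with 13 to 98 segments detected. In +/- library 3, 37 Ighv segments were detected, as many as in +/- library 2, whereas 72 Igkv segments were detected against 18. The lambda V segments (Iglv), of which the mouse has few, summed to 0 to 184 CPM, and at most 3 were detected.

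The machinery that joins and transcribes kappa genes was compared between genotypes by lists, in which no member was called by edgeR. Of 12 genes of V(D)J recombination, 11 were tested, 7 with lower and 4 with higher fitted values in Ifnar1 -/- AML, with a median log2 fold change of -0.10 against -0.01 over all genes. Rag1, which cuts the DNA together with Rag2, was at 0 to 10.2 CPM in the +/- and 0 to 18.9 CPM in the -/- libraries. Its highest level was in -/- library 3, where Igkv9-124 and Igkv6-20 led. In +/- library 3, which had the most pseudogene counts, Rag1 was at 1.29 and Rag2 at 6.36 CPM, below +/- libraries 4 and 5 (10.2 and 8.48 CPM of Rag1).

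Of 23 factors of kappa transcription and recombination, all were tested, 12 with lower and 11 with higher fitted values, with a median of -0.05. Cxcr4, a chemokine receptor tied to kappa recombination, had the smallest p, with a log2 fold change of 1.32 (SE 0.46, edgeR adjusted p = 0.9998), and did not pass. Irf4, which activates light-chain recombination, was at 27.2 to 76.6 CPM in the 5 libraries with Igll1 above 1000 CPM and at most 1.37 CPM in the others. Pax5 and Ebf1, which set B cell identity, were at 106 to 201 and 530 to 744 CPM in those 5 whereas the other 6 had at most 1.07 CPM of Pax5 and 8.71 CPM of Ebf1.

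Of 11 genes of pre-B cell receptor and IL-7 signalling, 7 had lower and 4 higher fitted values, with a median of -0.32. Of the 4 surrogate light chain genes, 3 had lower and 1 higher fitted values, with a median of -0.40. Ighm, the mu heavy chain, was at 2069 to 3663 CPM in the 5 libraries and at 3.68 to 83.1 CPM in the other 6. Of those 6, 3 had a summed Igkv level near that of +/- library 3 (32.3 CPM), with 38.8 and 28.1 CPM in +/- libraries 1 and 2 and 34.0 CPM in -/- library 2. A similar summed Igkv level was thus found with Ighm at 26.1 to 83.1 CPM and at 2069 CPM.

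Markers of mature B cells were summed over 6 genes and reached 149 to 410 CPM in the 5 libraries with Igll1 above 1000 CPM and 0.648 to 2.47 CPM in the other 6. Cd22 was the largest of the 6 in +/- libraries 3, 4 and 5 and -/- library 3, at 136, 151, 164 and 78.7 CPM. In -/- library 5 it was at 98.4 CPM. Fcer2a, a receptor of mature B cells, was at most 0.313 CPM in any library, and Cr2 at most 2.04 CPM. Ms4a1, which encodes CD20, was at 4.67, 65.2 and 125 CPM in +/- libraries 3, 4 and 5 and at 2.14 and 151 CPM in -/- libraries 3 and 5. The 7 plasma cell markers summed to 799 to 1278 CPM in those 5 libraries and 121 to 309 CPM in the others. Most of this came from Mzb1, also made by other B cells, at 684 to 1122 CPM in the 5 libraries, and from Xbp1, which many cell types express, at 55.6 to 296 CPM over all 11. Sdc1 was at 28.3 to 53.1 CPM in +/- libraries 4 and 5 and -/- libraries 3 and 5 and at most 1.65 CPM elsewhere, whereas Tnfrsf17 was at most 0.108 CPM in any library.

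Jchain was at 11.2, 4.17, 0.216, 2.51, 10.5 and 5.41 CPM in +/- libraries 1 to 6 and 0.154, 7.16, 0.893, 1.80 and 34.3 CPM in -/- libraries 1 to 5. High and low values thus occurred both among libraries with many segments and among those with few. The part of antibody-secreting cells in the leading segments was not tested.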

How the data were processed

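Bulk RNA sequencing of 11 mouse AML samples was used. The deposited values are estimated counts per gene. Tools named, per the submitters' processing notes, were bcl2fastq and DRAGEN, without versions. Neither build nor annotation is given in the sources used here. Of the 160 segments' values, 6.7% were not whole. The table's 55774 rows held 287 identical copies, which were dropped to leave 55487 genes, and 55141 matched a symbol by Ensembl identifier. Genes with no symbol, at most 0.0219% of any library, were kept in the totals.

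Rounded counts were scaled with TMM and fitted in edgeR 4.0.16 under R 4.3.3 (filterByExpr by genotype, robust quasi-likelihood F-test, two-sided, Benjamini-Hochberg adjustment over 14521 genes, threshold 0.05). SE is the absolute log2 fold change over the square root of F. The fit was tested on simulated data. Detected means at least 1 count, shares use at least 100 Igkv counts, and intervals are 95% Wilson. Class, position and sequence came from GENCODE release M21 (GRCm38). Alternatives were DESeq2 1.42.0, its size factors, other filters, a replicate block, and each library left out. Sums over segments and lists were given no p-value.

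Members and lists were chosen with earlier results of these data known. Named segments are those with the 3 smallest p-values per direction where none passed, the 12 with the highest mean CPM and the leader of each library. A promoter motif count was not run.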

Additional observations from a re-analysis of the deposited data

Results flagged for a closer look

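Within a genotype, a library was singled out where its gap to the nearest other library, relative to the range, exceeded Dixon's 95% critical value. Of 40 groups of values examined, 12 gave such a library. For normally distributed values chance does so in about 1 in 20 groups, but that level cannot be applied here: many segments were chosen because they were high in a library, and many values are 0. In -/- library 5 this held for Igkc at 430 CPM (next library 72.3 CPM), Igkv8-21 at 116 CPM (0.155), Igkv12-46 at 7.21 CPM (0), Igkv4-68 at 5.43 CPM (0.315) and Igkv1-135 at 4.47 CPM (0.643). In -/- library 3 it held for Igkv6-20 at 19.5 CPM (next 0) and for the ratio of Igkv to Igkc counts, 1.40 (next 0.488). In -/- library 2 it held for Igkv1-110 at 5.92 CPM (next 0.447). Among the Ifnar1 +/- libraries, library 5 stood apart for Igkv3-4 at 12.5 CPM (next 1.82) and Igkv1-110 at 9.84 CPM (next 1.80), library 6 for Igkv12-46 at 14.0 CPM (next 3.16), and library 2 for Igkv6-23 at 3.50 CPM (next 0.169).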

How the results depend on the processing

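No segment was called under any alternative run, and leaving out each library gave 0 calls each time. The difference in summed Igkv CPM (8.26) ran from -28.4 (without -/- library 5) to 24.1 with 1 library left out, and on the log2(summed CPM + 1) scale it was -1.26. The difference in segments detected ran from -31.3 to -10.8, the median effective number from 9.65 to 12.3 and the median leading share from 30.4 to 31.4%; the last 2 ranges were added after seeing the data. The log2 fold change of Igkc ran from -2.54 (without -/- library 5) to -0.12 (without +/- library 5). With a replicate block on numbers 1 to 5 it was -2.33, 0 segments were called, and Igkv1-135 (-0.80) and Igkv9-124 (-2.20) changed sign. With 1 library left out, Igkv1-135 ran from -1.93 (without -/- library 5) to 0.78 and Igkv9-124 from -0.69 (without -/- library 3) to 1.98. Same-numbered libraries did not all deviate together (r = 0.52, 0.24, 0.62, -0.59 and 0.62). These values cannot decide whether a number pairs samples, because libraries within a genotype also differ widely in early B cell RNA. The labels do not say so either way. With counts summed by family the effective number was 6.53, 11.7 and 9.04 in +/- libraries 3, 4 and 5. The inverse Simpson index, 1 over the sum of squared shares, was 19.8 and 23.9 in +/- libraries 4 and 5. By construction neither measure can exceed the effective number of segments. The cause of the changes of sign was not tested. Few Igkv counts, 5 and 86, limit -/- libraries 1 and 4 to statements on level. Their totals, 28654865 and 25724241 estimated counts, lay within the range of the other libraries.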
